A study of Cynoglossus semilaevis with 24 samples.

Results

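The genes described here are the proteasome genes of the Chinese tongue sole, Cynoglossus semilaevis, a flatfish with Z and W sex chromosomes. They are the 50 entries, of 22773 in the deposited gene table, whose pathway annotation names the proteasome. Transcripts were measured by RNA sequencing in 8 groups: female brain, male brain, female pituitary, male pituitary, female liver, male liver, female gonad and male gonad. The fish were 2 years old, sex was given as genetic sex, and no treatment or altered genotype was labelled. Each group had 3 libraries, and each library was a pool of the organ from 5 fish, which leaves differences among individual fish unmeasured, and n below counts pools. The labels do not say whether pools of different organs held the same fish.

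The proteasome is the protease that breaks down proteins tagged with ubiquitin. Its 20S core is a barrel of alpha subunits, which gate the entrance, and beta subunits, of which the beta 5, 6 and 7 types cut the substrate. The 19S cap holds a ring of ATPases that unfold the substrate and a set of non-ATPase subunits, some of which bind ubiquitin or remove it. In vertebrates interferon induces the immune beta 8, 9 and 10 types, which take the places of beta 5, 6 and 7 and change the peptides made for display to T cells. Activators other than the cap also dock on the core. They are PA28 alpha and beta (psme1 and psme2), which interferon induces, PA28 gamma (psme3), a nuclear form, and PA200 (psme4), which in mice is known for its role in sperm formation.

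The 50 entries comprised 8 alpha subunits, 7 constitutive beta subunits, 3 immune beta subunits (psmb8, psmb9a and psmb10), 1 beta 11 type (psmb11a, known in mammals from the thymus), 2 further beta entries (LOC103393839 and psmb12), 7 cap ATPases, 14 cap non-ATPase subunits, 5 activators and 3 entries for inhibition or maturation. The last 3 were psmf1 and LOC103377925, both of the PI31 type, which inhibits the core in the test tube, and pomp, the factor that guides assembly of the core. Both entries of the ATPase psmc5 held the same values in all 24 libraries and were counted once, which left 49 members. The alpha 6 type had a second entry, LOC103378260, called psma6-like here, and psmd4 and psmd11 had second entries in LOC103388207 (psmd4-like) and LOC103393606 (psmd11-like). Reads of such related copies may be shared, so the split between them is uncertain. In the reference assembly Cse_v1.0, psmb8, LOC103393839, psmb12, the peptide transporter gene tap2a and psmb9a lie next to each other, and 0 of the 48 entries found there lie on Z or W. Of the 49 members, 47 reached 1 FPKM in at least 3 libraries and 44 did so in all 24. FPKM is a fragment count scaled by transcript length and by the total of the library. The PA200 copy psme4b stayed below that level, with 0.46, 0.92 and 0.63 FPKM in male gonads and at most 0.20 FPKM in the other libraries, and psmb11a reached at most 0.16 FPKM.

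Library totals lay between 10032337 and 15409531 estimated counts, apart from 25293744 in female gonad 1. Markers matched the labelled organs: summed oocyte marker levels were at least 16435.6 FPKM in female gonads, against at most 105.3 FPKM in male gonads. In females 12 of 14 neuron and glia markers were called higher in brain, 9 of 9 pituitary hormone markers in pituitary and 15 of 15 hepatocyte markers in liver than in the other organs. Male brain 1, female pituitary 3 and male pituitary 3 held traces of the oocyte markers, at 0.682%, 0.454% and 0.743% of the level in female gonads. Male pituitary 3 also had 18.89 FPKM of male germ cell markers, against 2.06 to 2.82 FPKM in the other pituitaries, and female gonad 2 had 2570.5 FPKM of hepatocyte markers, against 77.04 and 98.66 FPKM in the other female gonads. The part of these traces in the results below was not tested. Differences below are log2 values from edgeR's quasi-likelihood test, the first named group minus the second, with Benjamini-Hochberg adjustment over all genes tested, and a gene is called where the adjusted p is under 0.05. Comparisons across organs depended on how libraries were scaled. With TMM scaling the median of all genes lay between -0.38 and 0.03 in the 8 organ contrasts, and without scaling beyond the library total it lay between -2.52 and 1.07. In bulk tissue, fewer cells of a type and less RNA per cell cannot be told apart.

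By level, proteasome transcripts were most abundant in the gonads and least abundant in the liver. The summed level of the members was 4679.8 ± 488.8 FPKM in female gonad, 2425.6 ± 69.95 in female brain, 2370.8 ± 98.8 in female pituitary and 759.4 ± 181.5 in female liver (SD, n = 3 each). In males the sums were 6491.1 ± 535.9 FPKM in gonad, 2389.5 ± 127.3 in pituitary, 2266.3 ± 48.02 in brain and 544 ± 77.78 in liver (SD, n = 3 each). Brain and pituitary sums overlapped in both sexes, whereas the gonads lay above and the livers below all other groups. The FPKM of all genes together also differed by organ. It was 457127 to 461434 in female brains, 582836 to 603870 in female pituitaries and 679304 to 694705 in female gonads. As a share of that total, brain pools lay wholly above pituitary pools in both sexes. The gonads stayed highest and the livers lowest, but female gonads lay less far above female brains than by sums. Members took 0.59% of all counts in female gonad and 0.877% in male gonad, against 0.0992% in female liver and 0.072% in male liver. Of 46 members at the filter, 33 (71.7%) had their highest mean in the gonad in females, where 32.8% of all genes did. In males the gonad was highest for 42 of 46 (91.3%), against 45% of all genes. The liver was lowest for 38 (82.6%, against 61.5% of all genes) in females and for 44 (95.7%, against 79.5%) in males. With TMM scaling, the members' median difference of female liver from the other 3 female organs was -0.23, against -0.38 for all genes. In male liver it was -0.56, against -0.38 for all genes. The constitutive beta subunits show the order within a class: their median level was 166.5 FPKM in female gonad, 71.13 in female brain, 69.68 in female pituitary and 19.83 in female liver, and 252.7, 69.93, 70.51 and 15.35 FPKM in the same organs of males.

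**Figure D1:**
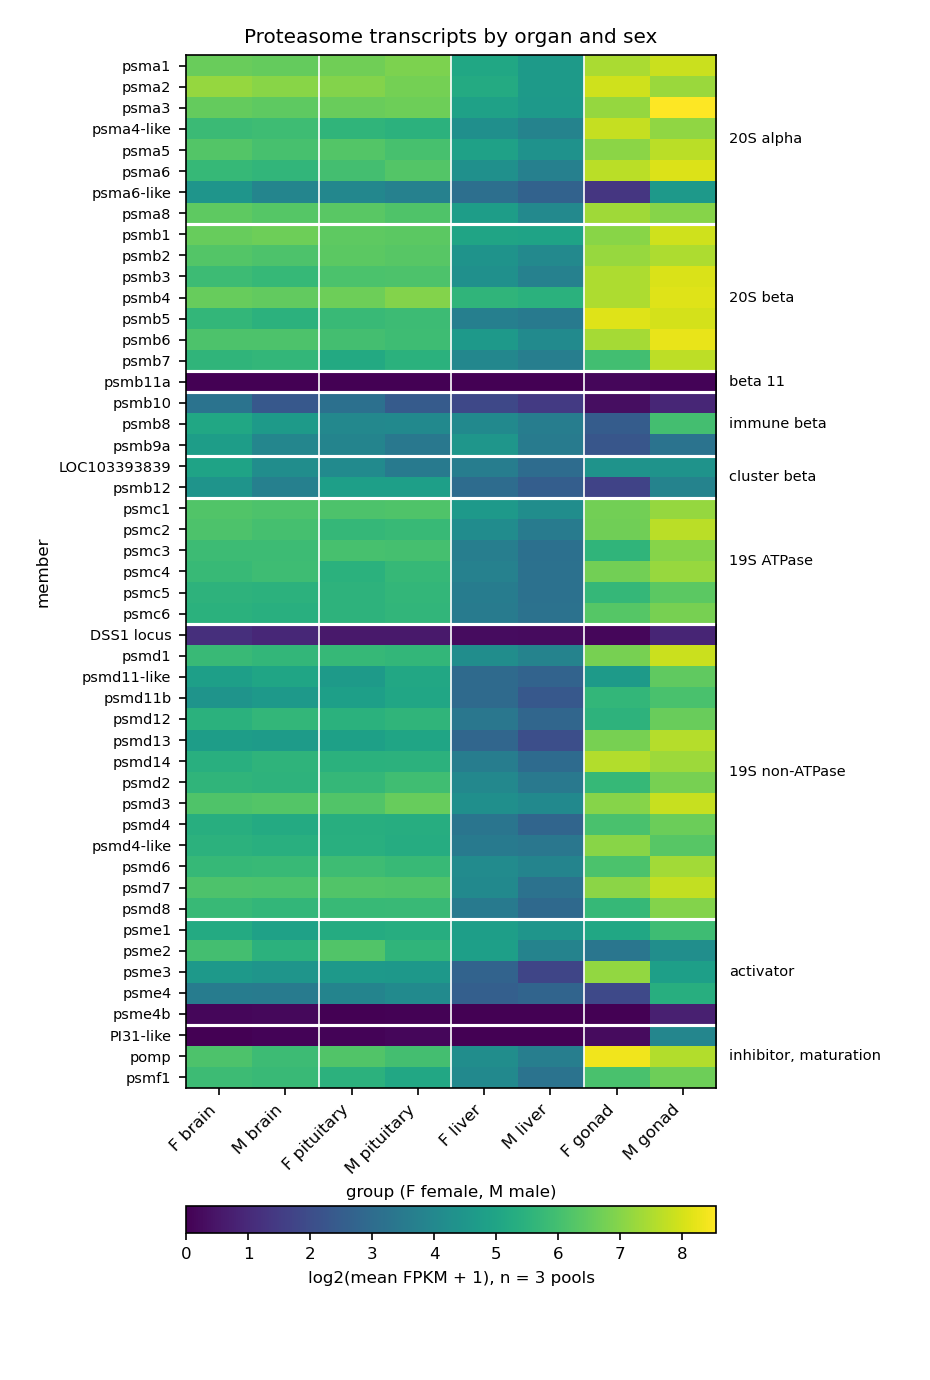
Level of each of the 49 members (down the page, by subunit class) in the 8 groups (across, female left of male within each organ), as log2(mean FPKM + 1) of 3 pools in colour. Most members are brightest in the gonad columns and darkest in the liver columns, while psma6-like, psmb12 and the immune beta subunits are dark in female gonad.

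Female gonads held more transcript of nearly all core and cap subunits than the mean of the other 3 female organs, and less of the immune subunits. Of 46 members tested, 36 were higher and 8 lower in female gonad, where 84.8% of all genes were called in one direction or the other (43.1% higher, 41.7% lower). All 44 calls held under every alternative tried, and the median difference of the members was 1.38, against -0.09 for all genes. The FPKM of the gonad pools lay wholly above all other female pools for 27 members and wholly below for 7, where 47.1% of all genes had no overlap. In the core, 7 of 8 alpha and 7 of 7 constitutive beta subunits were higher. psmb5, the chymotrypsin-like catalytic subunit, had 282.68, 268.61 and 288.9 FPKM in female gonads, against 46.21 to 56.72 in female brains, 51.54 to 59.83 in female pituitaries and 9.94 to 14.25 in female livers. Every gonad pool lay above every pool of the other organs, and the difference was 3.26 (SE 0.09, edgeR adjusted p = 4.64e-14). In the cap, 6 of 6 ATPases and 13 of 14 non-ATPase subunits were higher. They included psmd14, which cuts ubiquitin off the substrate, at 2.92 (SE 0.13), and the structural subunit psmd13 at 2.89 (SE 0.15). These calls are against the mean of the other 3 organs, liver included, and not against each organ. In FPKM, psmc3 in female gonads (46.14 to 48.82) lay below female brains (55.59 to 57.67) and female pituitaries (62.54 to 69.44). psmd11-like in female gonads (22.57 to 25.93) lay below female brains (26.59 to 28.11), and psmd8 had its highest female mean in pituitary. The assembly factor pomp had 289.19, 379.04 and 326.51 FPKM in female gonads, against at most 79.85 FPKM in any pool of the other female organs, a difference of 3.01 (SE 0.09, edgeR adjusted p = 7.7e-14).

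The activators split by kind in female gonad. PA28 gamma, psme3, had 117.79, 162.56 and 143.74 FPKM in female gonads, 22.64 to 24.61 in female brains, 21.87 to 23.6 in female pituitaries and 3.63 to 6.76 in female livers. The gonad pools did not overlap those of any other organ, and psme3 had the highest difference of all members there, 3.42 (SE 0.11, edgeR adjusted p = 2.11e-13). The interferon-inducible psme2 was lower, at -2.31 (SE 0.16), its partner psme1 was not called at 0.09 (SE 0.12), and PA200, psme4, was lower at -1.62 (SE 0.12). All 3 immune beta subunits were lower: psmb10 at -4.24 (SE 0.38, 2 to 12 counts per gonad pool), psmb9a at -2.25 (SE 0.42) and psmb8 at -1.95 (SE 0.26). Also lower were psma6-like at -2.97 (SE 0.24), psmb12 at -2.63 (SE 0.27) and the entry annotated as DSS1, a small cap subunit, which stayed at or under 1.37 FPKM in every library. Among female libraries DSS1 reached 1 FPKM only in the 3 brain pools and passed the filter through them alone, so its call supports nothing. Of 34 antigen presentation and interferon genes tested, 4 were higher and 26 lower in female gonad, with a median of -2.46 against -0.09 for all genes. Interferon gamma, ifng1, had 0.83, 1.29 and 0.47 FPKM in female gonads and at most 0.26 FPKM in any other library. It was too low to pass the filter and was not tested. Of 15 blood and immune cell markers, 1 was higher and 14 were lower, and their summed level was 161.4 to 232.6 FPKM in female gonads, against 683.4 to 4115.9 in the other female organs. The part of blood and immune cells in the immune subunit values was not tested.

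Male gonads also held more core and cap transcript than the mean of the other 3 male organs, and here 1 immune subunit was higher as well. Of 46 members tested, 38 were higher and 4 lower, where 77.7% of all genes were called (41% higher, 36.7% lower). The median difference was 1.03, against 0.03 for all genes, and 39 of the 42 calls held under every alternative. The gonad pools lay wholly above all other male pools in FPKM for 39 members and wholly below for 0, where 40.4% of all genes had no overlap. All 6 ATPases, 13 of 13 non-ATPase subunits, 7 of 7 constitutive beta subunits and 6 of 8 alpha subunits were higher, among them psmd13 at 2.84 (SE 0.13), psmb5 at 2.07 (SE 0.12), psma6 at 1.94 (SE 0.12) and the caspase-like catalytic subunit psmb6 at 1.93 (SE 0.11). The PI31-like entry LOC103377925 was read in male gonad almost alone, with 21.69, 8.66 and 12.11 FPKM from 278, 109 and 150 counts. In the other 21 libraries it had 0 to 5 counts and at most 0.36 FPKM. It passed the filter through the male gonads alone, so its place among the 38 higher members supports nothing. psmb8 had 71.81, 67.84 and 50.67 FPKM in male gonads, 20.87 to 27.11 in male brains, 13.98 to 19.02 in male pituitaries and 10.91 to 11.84 in male livers. Its gonad pools lay above all others, and the difference was 0.94 (SE 0.13, edgeR adjusted p = 8.58e-06). The other immune subunits were lower, psmb10 at -2.85 (SE 0.44) and psmb9a at -1.42 (SE 0.22), as was psme2 at -1.81 (SE 0.24). These differences are against the mean of the other 3 male organs, and in FPKM psmb10, psmb9a and psme2 in male gonads overlapped male livers. psmb9a in male gonads (10.15, 9.6 and 6.04 FPKM) also overlapped male pituitaries (8.64 to 10.94) and male brains (9.27 to 16.81). Without scaling beyond the total, 42 members were higher and 2 lower in male gonad. psme2 had 13.58, 15.03 and 24.11 FPKM in male gonads and 13.65, 11.11 and 14.94 in male livers. psmb12 was lower at -0.85 (SE 0.15), but was positive and not called without scaling beyond the total and with limma on log2(FPKM + 1). psme4 was higher at 0.99 (SE 0.12). psme3 was higher at 0.35 (SE 0.15, edgeR adjusted p = 0.0481), and was not called with median-ratio scaling, without the filter, with DESeq2 or without any 1 of male brain 1, 2 or 3, male pituitary 2 or 3, male liver 1 or 3, or male gonad 2 or 3 (adjusted p up to 0.223). Of 33 antigen presentation and interferon genes tested in male gonad, 5 were higher and 23 lower, with a median of -1.11 against 0.03 for all genes. Blood and immune markers were higher for 2 and lower for 13 of 16 genes tested in male gonad, with sums of 659.9 to 971.6 FPKM against 529.9 to 3201.4 in the other male organs, and their part was not tested.

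**Figure D2:**
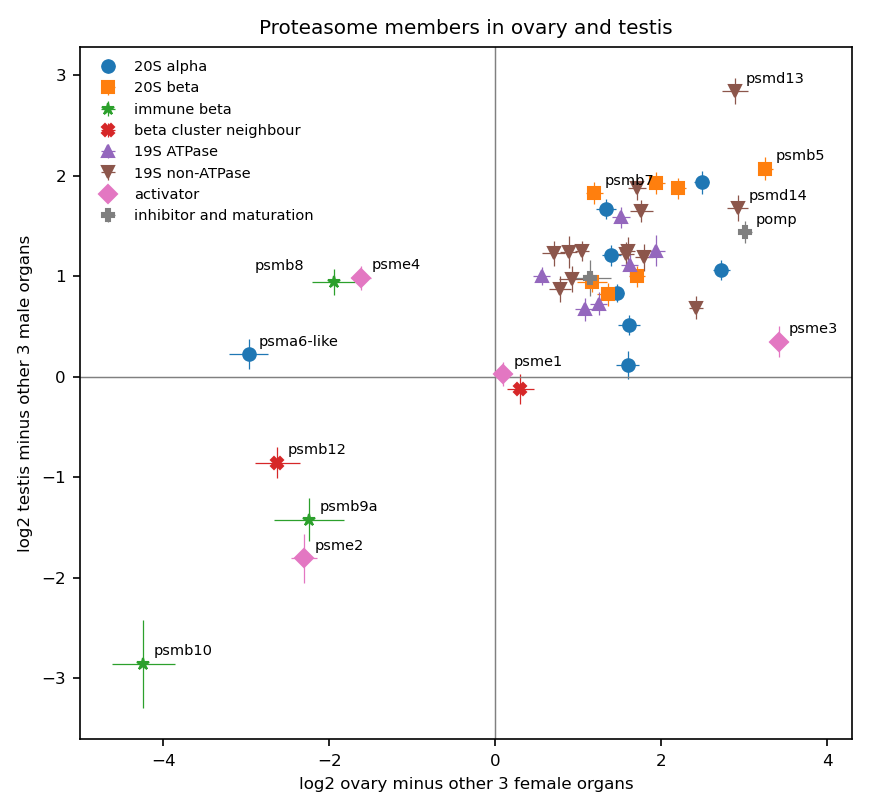
Log2 difference of each member tested in both sexes between the gonad and the other 3 organs, in females on the horizontal axis (ovary) and in males on the vertical axis (testis), with bars of 1 SE and a symbol per subunit class. Core and cap subunits other than psma6-like lie at upper right, psme3 lies far right at 3.42 and 0.35, psmb8 and psme4 lie at upper left, and psmb10, psme2, psmb9a and psmb12 lie at lower left; the male value of psmb12 is above 0 without scaling beyond the total.

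Between female and male gonad the members differed in both directions. Of 45 members tested, 15 were higher and 11 lower in female gonad, in a contrast where 84.2% of all genes were called (38.8% higher, 45.4% lower). Directions depended on scaling here: 19 were higher and 9 lower with median-ratio scaling, and 5 higher and 35 lower without scaling beyond the total, where the median of all genes was -1.04 against -0.24 with TMM. Only members called in the same direction under every alternative are named as different below. There were 13, of which the PI31-like entry passed the filter through the male gonads alone and is given as counts only. On the unscaled FPKM values, 5 members were higher and 35 lower in female gonad without overlap between the pools, where 86.3% of all genes had no overlap.

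The members that were higher in female gonad under every alternative were psme3, pomp, psmd4-like, psma4-like and psma2. psme3 had 117.79, 162.56 and 143.74 FPKM in female gonads, against 22.19, 29.57 and 30.12 in male gonads, well apart, with a difference of 3.18 (SE 0.16, edgeR adjusted p = 1.18e-08). pomp had 289.19, 379.04 and 326.51 FPKM in female gonads and 208.51, 168.78 and 191.67 in male gonads, without overlap, and a difference of 1.60 (SE 0.15, edgeR adjusted p = 1.51e-06). The ubiquitin receptor entry psmd4-like had 122.57, 135.23 and 132.18 FPKM in female gonads, against 87.58, 73.19 and 78.73 in male gonads (1.5 on the log2 scale, SE 0.13), whereas the other psmd4 entry had 63.42 to 73.17 FPKM in female gonads and 90.45 to 104.71 in male gonads and was not called at 0.26. The alpha subunits psma4-like and psma2 differed by 1.47 (SE 0.16) and 1.44 (SE 0.20).

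Members that were lower in female gonad under every alternative included an activator, an immune subunit and one of a pair of alpha 6 entries. PA200, psme4, had 2.1, 3.0 and 3.05 FPKM in female gonads, against 43.32, 33.46 and 42.13 in male gonads, a wide gap with a difference of -3.08 (SE 0.19, edgeR adjusted p = 4.01e-08). psma6-like had 1.5, 1.98 and 1.16 FPKM in female gonads and 21.63, 26.27 and 22.39 in male gonads, likewise apart, with a difference of -3.12 (SE 0.26, edgeR adjusted p = 5.35e-07). The immune subunit psmb8 had 4.29, 3.96 and 5.75 FPKM in female gonads, against 71.81, 67.84 and 50.67 in male gonads, a difference of -2.97 (SE 0.21, edgeR adjusted p = 1.58e-07). The PI31-like entry LOC103377925 had 5, 2 and 3 counts in female gonads and 278, 109 and 150 counts in male gonads. Smaller differences were seen for psmb12 at -1.71 (SE 0.29), psmd11-like at -1.03 (SE 0.14), the trypsin-like catalytic subunit psmb7 at -0.98 (SE 0.14) and the ATPase psmc3 at -0.61 (SE 0.13). psmb7 had 59.13, 58.43 and 65.62 FPKM in female gonads and 230.16, 194.28 and 201.5 in male gonads, while psmb5, another catalytic subunit, had 282.68, 268.61 and 288.9 FPKM in female gonads and 288.69, 248.53 and 220.9 in male gonads, pools that overlap on the FPKM scale. The TMM-scaled edgeR test called psmb5 higher in female gonad at 0.95 (SE 0.15, adjusted p = 8.74e-05), but it was not called without scaling beyond the total or with limma at either pseudocount. Marker lists differed strongly in the same contrast: 21 of 21 oocyte genes were higher, and 10 of 11 blood and immune genes were lower, in female gonad. The part of cell composition in these differences was not tested.

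**Figure D3:**
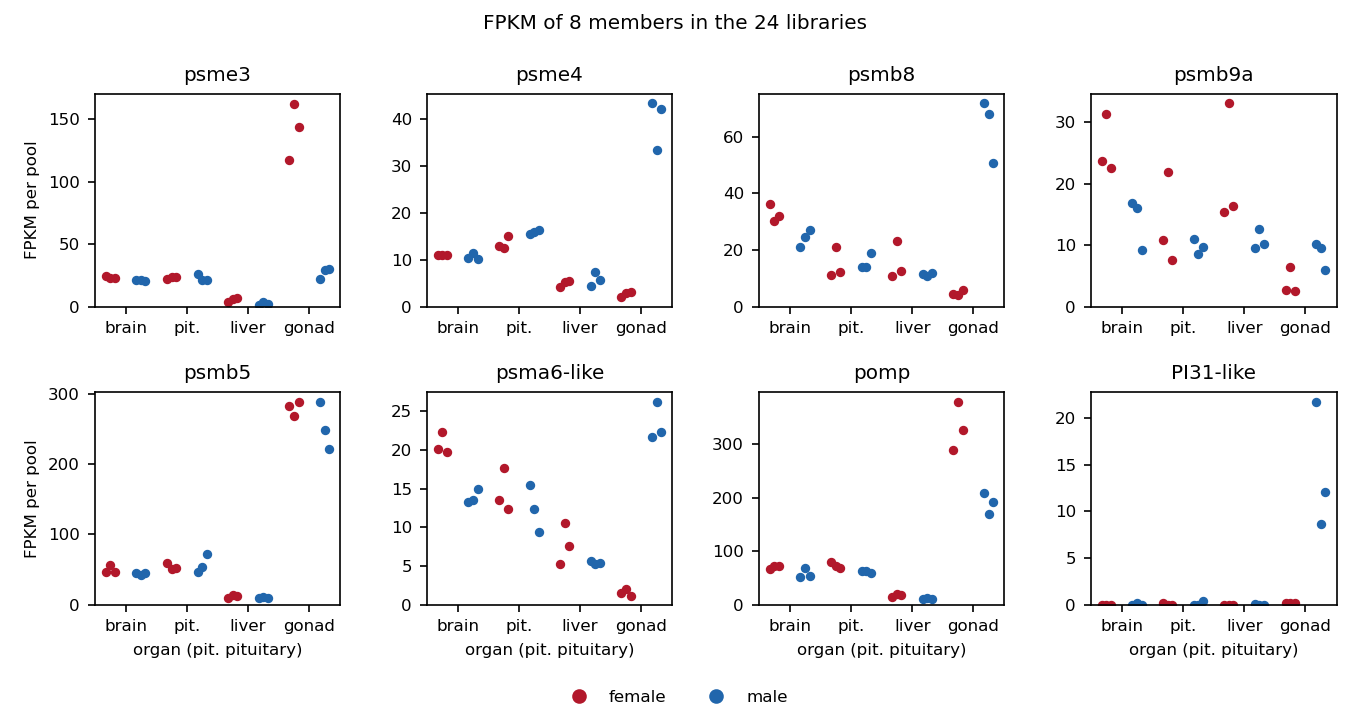
FPKM of 8 members in each of the 24 libraries, 1 point per pool on linear axes that start at 0, with female left of male within each organ. In the gonads the female points of psme3 and pomp lie above the male points, those of psme4, psmb8, psma6-like and the PI31-like entry lie below, and those of psmb5 overlap.

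Immune subunits made up very different shares of the catalytic subunits from organ to organ. The share is the FPKM of psmb8, psmb9a and psmb10 over the FPKM of these plus psmb5, psmb6 and psmb7, and it does not depend on library scaling. It is a sum over members and was not tested. It was 43.1 ± 5.33% in female liver, 28.6 ± 0.985% in female brain, 19.03 ± 6.88% in female pituitary and 1.71 ± 0.336% in female gonad (SD, n = 3 each). In males it was 38.8 ± 2.89% in liver, 20.6 ± 1.45% in brain, 16.02 ± 1.52% in pituitary and 8.65 ± 1.34% in gonad (SD, n = 3 each). The pools of the sexes did not overlap in brain, at 27.5 to 29.5% in females and 19.3 to 22.2% in males, nor in gonad, at 1.44 to 2.09% in females and 7.23 to 9.89% in males. They overlapped in liver and in pituitary, where female pituitary 2 had 26.9% and the other female pools 14.5% and 15.6%. In female livers, psmb8 had 10.9, 23.24 and 12.4 FPKM and psmb5 had 9.94, 14.25 and 11.9 FPKM. The immune subunits summed to 28.73, 60.31 and 30.48 FPKM there, a range that overlaps the 28.76, 52.22 and 27.71 FPKM of female pituitaries. The pairs that replace each other behaved differently in male gonad, where psmb8 was 20.01% of psmb8 plus psmb5, psmb9a 2.74% of psmb9a plus psmb6, and psmb10 0.425% of psmb10 plus psmb7. In female gonad the same shares were 1.63%, 2.29% and 0.384%.

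**Figure D4:**
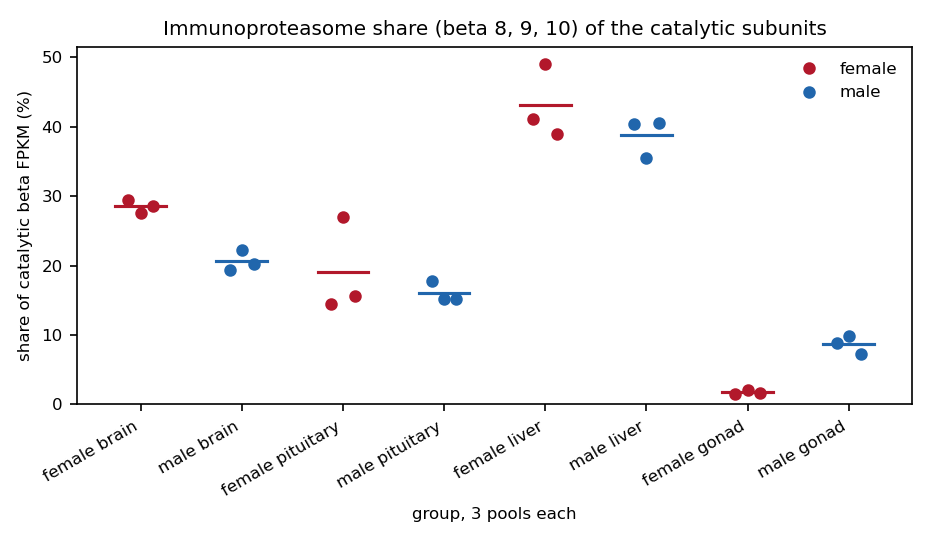
Immune share of the catalytic beta subunits in each library, in percent of their summed FPKM, with female left of male within each organ, points for the 3 pools and a line for their mean. Female brain pools lie above male brain pools, and female gonad pools lie below male gonad pools.

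In brain, female pools held more transcript of the immune subunits and of the interferon-inducible activators, while few subunits of the constitutive core and the cap were called. None of these immune subunit and activator calls held under every alternative tried. Of 46 members tested, 8 were higher and 1 lower in female brain. This share of 19.6% was near that of all genes, of which 20.3% were called (9.36% higher, 10.9% lower). Pools did not overlap for 15 members, 14 of them higher, where 37.6% of all genes had no overlap. All 3 immune subunits were higher. psmb8 had 36.36, 30.32 and 32.07 FPKM in female brains, against 20.87, 24.64 and 27.11 in male brains, without overlap, a difference of 0.40 (SE 0.12, edgeR adjusted p = 0.0254). psmb9a had 23.68, 31.43 and 22.5 FPKM in female brains and 16.81, 16.13 and 9.27 in male brains, also apart, a difference of 0.84 (SE 0.21, edgeR adjusted p = 0.0182). psmb10 had 9.84, 7.87 and 8.1 FPKM in female brains and 3.41, 2.48 and 6.39 in male brains, without overlap but with the male pools more spread, a difference of 1.02 (SE 0.30, edgeR adjusted p = 0.0342).

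Both further beta entries of the psmb8 neighbourhood were higher too. LOC103393839 had 32.37, 28.95 and 28.32 FPKM in female brains, against 16.98, 15.63 and 19.66 in male brains, a difference of 0.73 (SE 0.12, edgeR adjusted p = 0.000769). It was the only brain call kept under every alternative tried. psmb12 had 21.54, 21.63 and 18.54 FPKM in female brains and 10.76, 12.11 and 13.88 in male brains (0.70, SE 0.14, edgeR adjusted p = 0.00234). Both groups of pools were apart for both genes. The activators psme2 (0.48, SE 0.11, edgeR adjusted p = 0.00915) and psme1 (0.33, SE 0.11, edgeR adjusted p = 0.0429) and the alpha entry psma6-like (0.53, SE 0.12, edgeR adjusted p = 0.00523) were higher, and the cap subunit psmd12 was lower (-0.26, SE 0.08, edgeR adjusted p = 0.0459), with pools that overlap. By contrast 0 of 7 constitutive beta subunits and 0 of 6 ATPases were called by edgeR, with 0 and 1 of them at an unadjusted p under 0.05.

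The antigen presentation and interferon list moved with these members in brain, with 11 of 33 genes higher and 0 lower and a median of 0.27, against 0.01 for all genes. It included the peptide transporter genes tap1 (0.46, edgeR adjusted p = 0.00145) and tap2a (0.82, edgeR adjusted p = 0.00139) and the interferon regulatory factors irf3 (1.69, edgeR adjusted p = 0.00129) and irf8 (0.75, edgeR adjusted p = 0.000195). With all 24 libraries in one fit tap1 and irf3 were not called (adjusted p = 0.253 and 0.243), while tap2a and irf8 were called under every alternative. Of 15 blood and immune cell markers tested, 8 were higher and 0 lower in female brain, with sums of 3523.1 to 4115.9 FPKM in female brains and 2803.5 to 3201.4 in male brains. Neuron and glia markers were higher for 0 and lower for 3 of 12. Hepatocyte markers were higher for 2 and lower for 1 of 14, with a median of 0.10. Their sums were 2937.3 to 3454.9 FPKM in female brains and 1950.1 to 2186.8 in male brains, without overlap. The part of any of these in the immune subunit differences was not tested. The count of 9 calls was 5 without female brain 1, 5 without male brain 1, and 1 with all 24 libraries in one fit. psmb9a was not called without female brain 2, psmb8 not without female brain 1, male brain 1 or male brain 2, and psmb10 and psme1 not without any 1 of the female brains, male brain 1 or male brain 2.

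In pituitary, 2 of 45 members tested were higher and 3 lower in females, where 26.7% of all genes were called (12.4% higher, 14.3% lower), so the members' share was below that of all genes. LOC103393839 had 15.94, 17.51 and 15.07 FPKM in female pituitaries, against 11.25, 8.22 and 11.66 in male pituitaries, without overlap (0.63, SE 0.18, edgeR adjusted p = 0.0265). psmb10 had 6.78, 9.17 and 7.74 FPKM in female pituitaries and 5.96, 3.54 and 4.08 in male pituitaries, also apart (0.77, SE 0.25, edgeR adjusted p = 0.0383). Pools did not overlap for 6 members that were higher and 9 that were lower, where 44.2% of all genes had no overlap. The lower members were the cap subunits psmd11-like (-0.51, SE 0.14, edgeR adjusted p = 0.0170) and psmd3 (-0.36, SE 0.10, edgeR adjusted p = 0.0225) and the alpha subunit psma6 (-0.30, SE 0.10, edgeR adjusted p = 0.0418). Of 33 antigen presentation and interferon genes tested in pituitary, 0 were higher and 2 lower, with a median of 0.14 against 0.01 for all genes. Markers moved in pituitary too: 4 of 15 blood and immune genes were higher and 0 lower, 1 of 9 pituitary hormone genes was higher and 4 were lower, and 0 of 10 neuron and glia genes were higher and 3 lower. Blood and immune marker sums overlapped, at 854.8 to 884.1 FPKM in female pituitaries and 829.1 to 978.5 in male pituitaries, and the part of these markers was not tested. None of the 5 calls held under every alternative: the count was 0 without female pituitary 2 or without male pituitary 2, 2 without female pituitary 1, 3 without female pituitary 3, 3 without both pituitary libraries numbered 3, and 2 with all 24 libraries in one fit.

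In liver, 1 of 45 members was called, and it was higher in females, against 6.82% of all genes (1.88% higher, 4.94% lower). The activator psme2 had 21.57, 36.97 and 23.21 FPKM in female livers, against 13.65, 11.11 and 14.94 in male livers, without overlap, a difference of 0.92 (SE 0.21, edgeR adjusted p = 0.0331). Differences of most members were positive but not called: 43 of 45 lay above 0, with a median of 0.45 against 0.02 for all genes. psme3, for one, had 3.63, 6.45 and 6.76 FPKM in female livers and 1.49, 3.44 and 2.4 in male livers (1.09, SE 0.28, edgeR adjusted p = 0.0517). Of the members tested, 12 of 45 had female pools wholly above the male pools, where 26.5% of all genes had no overlap in either direction. The psme2 call was kept without female liver 1 and lost without any 1 of the other 5 liver libraries. The members called numbered 5 without female liver 1, 4 others without male liver 2, 0 on dropping any 1 of the remaining 4 libraries, and 16 with all 24 libraries in one fit.

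**Figure D5:**
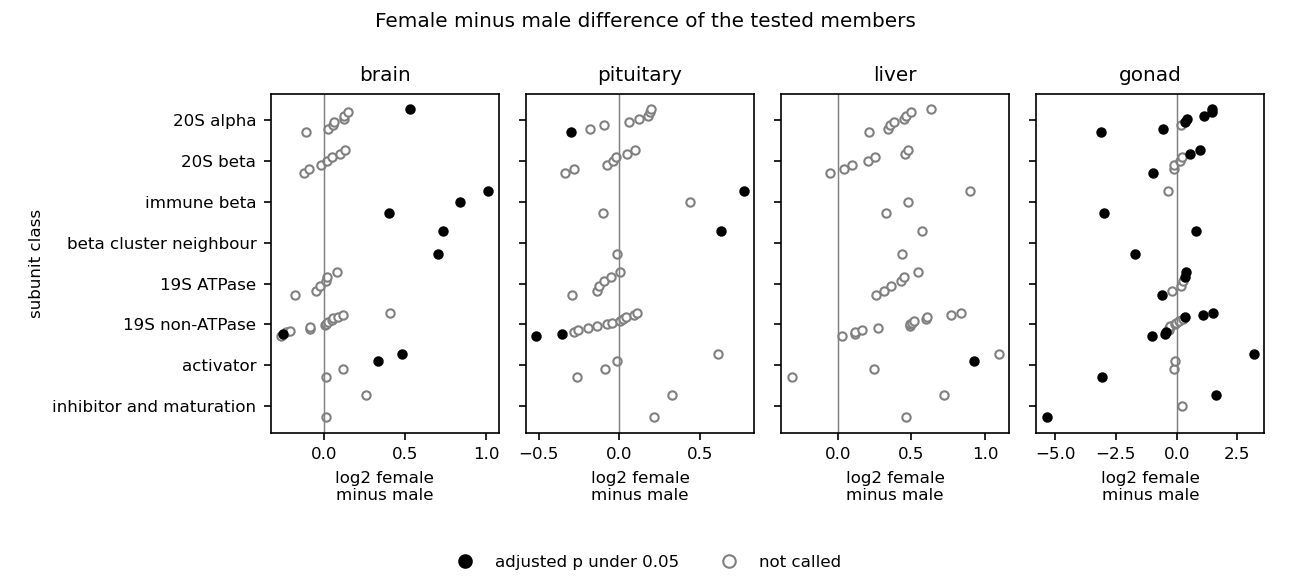
Log2 difference, female minus male, of each tested member in brain, pituitary, liver and gonad, by subunit class down the page, with filled points for members called at an adjusted p under 0.05 and open points for the rest; each panel has its own scale. In brain the immune and cluster entries are filled and lie right of 0 while the ATPases lie around 0, and in liver 43 of 45 points lie right of 0 with 1 filled.

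Across brain, pituitary and liver, 3 members (LOC103393839, psmb10 and psme2) were called higher in females in at least 2 of the organs. Of the members, 0 were called lower in at least 2, and 37 of 49 had no call in any. The 37 include psmb11a, psme4b and the PI31-like entry, which were tested in none of the 3. The same shares were not computed for all genes, so these counts are description only. A test of whether the sex difference itself differed among these 3 organs called 4 of 46 members, against 8.83% of all genes: psme3, psmd7, psmd11b and psma6. All 4 had their highest female minus male value in liver. For psma6 the values were 0.06 in brain, -0.30 in pituitary and 0.50 in liver, and for psmd7, a structural cap subunit, they were 0.00, 0.00 and 0.77. No immune subunit was called, so a sex difference of these particular to brain was not shown. Dropping female liver 1 gave 13 calls and dropping male liver 2 gave 11. There were 0 without any 1 of the other 4 livers, 1 or 2 without any 1 brain library or any 1 pituitary library other than male pituitary 3, and 0 without the 3 libraries with oocyte traces.

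Brain, pituitary and liver contrasts with the other organs of the same sex turned with the scaling, so few members can be described there. With TMM, 4 members were higher and 35 lower in female brain (79.3% of all genes called, 40.2% higher and 39.2% lower), whereas 27 were higher and 0 lower without scaling beyond the total. In female pituitary the counts were 6 higher and 29 lower (71.3% of all genes called, 36.5% higher and 34.8% lower), against 23 and 1 without scaling. In male brain they were 0 and 30 (71.3%, 35.8% higher and 35.5% lower), against 21 and 4, and in male pituitary 6 and 14 (61.8%, 32.6% higher and 29.1% lower), against 26 and 1. In female liver 11 were higher and 22 lower (74.6%, 31.5% higher and 43% lower), against 1 and 42, and in male liver 10 and 30 (71.7%, 30% higher and 41.7% lower), against 0 and 44. Calls that held under every alternative were 3 in female brain (DSS1, which passed the filter only there, among them), 5 in female pituitary, 4 in male brain, 4 in male pituitary, 19 in female liver and 25 in male liver.

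Among these stable calls, psmb12 was higher in both pituitaries, at 1.21 (SE 0.21) in female and 1.15 (SE 0.14) in male. psmb10 was higher in female brain at 1.15 (SE 0.26) and in female pituitary at 1.34 (SE 0.25). Both psmb10 differences are against the mean of the other 3 female organs, gonad included, where it had 2 to 12 counts per pool. In FPKM, psmb10 in female brains (7.87 to 9.84) overlapped female pituitaries (6.78 to 9.17). psmb8 was lower in male pituitary at -1.16 (SE 0.15), and psme4 and psme1 were lower in male brain at -1.24 (SE 0.14) and -1.06 (SE 0.13). These differences are against the mean of the other 3 male organs and not against each organ. In FPKM, psmb8 in male pituitaries (13.98 to 19.02) lay above male livers (10.91 to 11.84). psme4 in male brains (10.15 to 11.38) likewise lay above male livers (4.31 to 7.35). In liver the stable calls were mostly lower ones of the core and cap, such as psmb5 at -1.17 (SE 0.11) in female and -0.88 (SE 0.14) in male, psmd13 at -1.06 (SE 0.19) and -1.92 (SE 0.17), and pomp at -1.02 (SE 0.11) and -0.74 (SE 0.13). psmb9a was the one stable higher call in female liver, at 2.74 (SE 0.32) against the mean of the other 3 organs, gonad included. Its mean FPKM was highest in brain, not in liver. It had 15.46, 33.16 and 16.46 FPKM in female livers and 23.68, 31.43 and 22.5 in female brains. The values were 10.86, 21.92 and 7.66 FPKM in female pituitaries and 2.7, 6.4 and 2.62 in female gonads.

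Genes that work with the proteasome were described from a list of 42 partners, such as assembly chaperones, ubiquitin receptors and the segregase vcp. In female gonad against the other female organs, 24 of 40 tested partners were higher and 13 lower, where 43.1% of all genes were higher and 41.7% lower. In male gonad 25 of 39 were higher and 7 lower, where 41% of all genes were higher and 36.7% lower. psmg4, a chaperone that assembles the alpha ring, averaged 248 ± 39.0 FPKM in female gonad and 8.92 ± 0.458 FPKM in male gonad (SD, n = 3 each), a difference of 5.60 (SE 0.19, edgeR adjusted p = 7.78e-10). The deubiquitinase usp14, which docks on the cap, averaged 188 ± 12.3 FPKM in male gonad (SD, n = 3) and was higher there than in the other male organs by 2.79 (SE 0.12, edgeR adjusted p = 1.49e-11). Outside that list stand adrm1, a ubiquitin receptor of the cap, and a related entry. The related entry LOC103385601, annotated as ADRM1-like, had 16.61, 16.44 and 16.97 FPKM in female gonads, against 302.59, 190.39 and 245.37 FPKM in male gonads, a difference of -3.09 (edgeR adjusted p = 6.48e-08) that was called under every alternative. adrm1 averaged 78.8 ± 1.57 FPKM in female gonad and 100.6 ± 7.89 FPKM in male gonad (SD, n = 3 each), with a TMM-scaled difference of the opposite sign to these means, 0.45 (SE 0.13, edgeR adjusted p = 0.00733).

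Partners on Z differed between the sexes in brain as well. By their place in Cse_v1.0, of 40 partners tested in brain 3 were higher and 8 lower in females: 0 higher and 5 lower of the 5 on Z, 2 higher and 0 lower of the 2 on W, and 1 higher and 3 lower of the 33 on autosomes. Males have no W, so the direction of the 2 calls on W was fixed in advance and these calls support nothing. Of all genes, 9.36% were higher and 10.9% lower in this contrast. Fewer Z partners were called in the other 2 somatic organs. In pituitary 0 were higher and 3 lower of 5 on Z, where 12.4% of all genes were higher and 14.3% lower. In liver 0 were higher and 1 lower of 4 on Z, where 1.88% of all genes were higher and 4.94% lower. In gonad 0 were higher and 3 lower of 5 on Z, where 38.8% of all genes were higher and 45.4% lower. The shares of all Z genes called were not computed, so the counts of Z partners are description only. vcp, on Z, averaged 66.8 ± 1.82 FPKM in female brain and 123 ± 4.22 FPKM in male brain (SD, n = 3 each), a difference of -0.92 (SE 0.07, edgeR adjusted p = 1.18e-07). Between the sexes vcp was also called in pituitary (edgeR adjusted p = 4.11e-05) and in gonad (edgeR adjusted p = 0.000161) but not in liver (edgeR adjusted p = 0.315). Its W-linked relative LOC103397105 averaged 67.4 ± 3.81 FPKM in female brain and 0.163 ± 0.0777 FPKM in male brain (SD, n = 3 each). LOC103397105 passed the filter in brain through the female pools alone. Reads of the vcp pair may be shared, so the split between them is uncertain.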

How the data were processed

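RNA from pools of brain, pituitary, liver and gonad of both sexes was sequenced. The authors deposited 1 table with an estimated count and an FPKM value per gene and library, per the file headers. TopHat2 2.0.3.12 and Bowtie2 are named per the submitters' processing notes, and the counting tool and genome build are not given in the sources used here. Between 97.1% and 98.4% of the deposited estimated counts per library were whole, and all were rounded. Groups came from the sample labels.

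Members are the entries whose pathway annotation names the proteasome. The members and gene lists were chosen with earlier results of these data known. A gene was tested where 3 libraries of the comparison reached 1 FPKM, with edgeR 4.0.16 in R 4.3.3 (TMM scaling, robust quasi-likelihood fit), within an organ for sex, within a sex for organs, and over brain, pituitary and liver for the sex-by-organ term. SE is the absolute log2 difference over the square root of F. P-values weigh a difference between groups against the spread between pools. The scripts were tested on simulated data. Named genes are up to 5 called members per direction with the largest difference, the most abundant member of each class, the catalytic, immune, activator and maturation members, and up to 3 genes per direction of a list. Other genes named, such as the second psmd4 entry, were chosen after their values were seen.

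Alternatives were median-ratio scaling, no scaling beyond the total, no filter, a filter at 5 FPKM, a replicate block, all 24 libraries in one fit, DESeq2 1.42.0, limma 3.58.1 on log2(FPKM + 1) or log2(FPKM + 0.1), and leaving out libraries. The labels do not say that a pool number marks shared fish. Same-numbered pools of female brain and female pituitary all deviated together (correlations 0.214, 0.186 and 0.194). In no other pair of groups compared did every same-numbered pair do so (correlation over 0.1). Same-numbered pools of opposite sex cannot hold the same fish, yet their correlations reached 0.247 and 0.232 in liver and 0.195 in pituitary. The block is therefore not in the tests reported, and a pairing of female brain and pituitary pools was not excluded. Figures were drawn with matplotlib 3.10.9. Sequences were not used here.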

Additional observations from a re-analysis of the deposited data

Results flagged for a closer look

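The sex difference of 4 members differed among brain, pituitary and liver by the edgeR test of that difference itself. The adjusted p was 0.0241 for psme3, whose female minus male value was 0.12 in brain, -0.02 in pituitary and 1.09 in liver. It was 0.0366 for psmd7, with 0.00, 0.00 and 0.77 in the same organs. It was 0.0411 for psmd11b, with -0.24, -0.26 and 0.60, and 0.0447 for psma6, with 0.06, -0.30 and 0.50. None of these calls held under every alternative, and 8.83% of all genes were called by the same test.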

How the results depend on the processing

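All 44 female gonad calls against the other female organs held under every alternative, and 39 of 42 in male gonad. The 9 brain calls between the sexes became 1 with all 24 libraries in one fit and 5 to 11 on leaving out 1 library. The 5 pituitary calls became 2 with all 24 libraries, 3 without both libraries numbered 3 and 0 to 6 on leaving out 1 library. The 1 liver call became 2 with median-ratio scaling, 4 with no filter, 16 with all 24 libraries, 5 with DESeq2 and 0 to 5 on leaving out 1 library. The 26 gonad calls became 40 with no scaling beyond the total and 40 with limma at either pseudocount. The 4 sex-by-organ calls became 1 with no scaling beyond the total, 0 without 3 libraries and 0 to 13 on leaving out 1 library. The 35 female pituitary calls became 23 with limma on log2(FPKM + 1). In male gonad psmb12 was positive with no scaling beyond the total (adjusted p = 0.354) and with limma on log2(FPKM + 1) (adjusted p = 0.386). The cause of these changes was not tested. With the replicate block, calls were 7 in brain, 1 in pituitary, 3 in liver, 24 in gonad and 3 for the sex-by-organ term. Whether pool numbers mark shared fish is not labelled: same-numbered female brain and pituitary pools correlated at 0.214, 0.186 and 0.194, but only 6 of 9 female and 1 of 9 male pairs among brain, pituitary and liver were over 0.1. Of same-numbered pairs of opposite sex within these organs, 4 of 9 were over 0.1 as well. Adding LOC103393839 and psmb12 to the immune sum, a choice made after seeing the data, gave immune shares of 41.14% in female and 30.58% in male brain, 34.12% and 30.13% in pituitary, 52.48% and 48.58% in liver, and 5.724% and 12.13% in gonad. Depth limits the members with few counts, such as psmb10 in gonads and the PI31-like entry outside male gonad.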

Other observations

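Pool numbers were compared across organs, although the labels do not say that a number marks the same fish. psmb9a and psma6-like had their highest female FPKM in pool 2 in all 4 organs, 2 of 46 members, where 2.16% of all genes had this pattern. Of the listed genes outside the pathway, irf3, stat1a, isg15, psmd9, LOC103385727 and LOC103386210 had it as well. The lists hold 42 partners and 35 antigen presentation and interferon genes, and these genes were picked after their values were seen. In males stat1a and isg15 had their highest FPKM in pool 1 in all 4 organs, where 0.933% of all genes did. ifngr2 had it in male pool 2, where 3.48% of all genes did. psme4, 1 of 46 members, and the partner txnl1 had their highest female FPKM in pool 3 in all 4 organs, where 2.21% of all genes did. Whether any of these patterns goes beyond the share of all genes was not tested.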
